A study of Danio rerio with 4 samples.

Results

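Positions of the transcription factors Sox2 and Pou5f1 beside 4 genes for secreted fibroblast growth factors, fgf3, fgf8a, fgf17 and fgf24, were described in zebrafish embryos around the start of zygotic transcription. An interval of a deposited peak list was taken when either of its 2 flanking-gene columns named 1 of these genes. This gave 38 of 22907 intervals, with 19 of 6129 for Sox2 at late blastula, 12 of 7130 for Flag-tagged Pou5f1 at late blastula, 7 of 7747 for Flag-tagged Pou5f1 at the 512-cell stage and 0 of 1901 for Input chromatin at late blastula. Sox2 was precipitated with an anti-Sox2 antibody from wild-type embryos. Pou5f1-Flag was precipitated with an anti-FLAG M2 antibody from MZspg embryos, maternal-zygotic mutants of spiel ohne grenzen without functional Pou5f1, into which Pou5f1-Flag mRNA had been injected as 1-cell zygotes, at a dose set to barely rescue the mutant. Input was chromatin of wild-type embryos, sequenced with no antibody. The Pou5f1 values therefore describe an injected, tagged protein in a mutant background, whereas those of Sox2 describe the endogenous protein in wild-type embryos. Nuclei were pooled, 20000000 for each late blastula sample and 2000000 for the 512-cell sample. The sample records give 1% paraformaldehyde for all 4 samples.

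Fibroblast growth factors bind receptor tyrosine kinases on neighbouring cells and act through the Ras and MAP kinase cascade. Cells that receive the signal switch on Ets genes such as etv4 and etv5a and feedback inhibitors of the Sprouty and Dusp families. In the zebrafish blastula and gastrula the signal comes largely from the margin, where it takes part in mesoderm formation and dorsoventral patterning, and later from organizing centres of the brain. Sox2 belongs to the SoxB1 factors and Pou5f1 to the POU factors, as does mammalian Oct4, and proteins of these families can bind DNA as partners.

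Each group held 1 sample, so no difference between lists has a replicate check and no test between groups was made. Read counts of an interval are the authors' own and depend on how deeply each sample was sequenced, so intervals are placed by rank within their own list. The lists had medians of 63 (Sox2), 41 (late blastula Pou5f1-Flag), 52 (512-cell Pou5f1-Flag) and 72 reads per interval (Input). Library totals were not analysed here. All coordinates are Zv9, counted from 1. A gene's own place was bracketed by the 2 intervals between which it changes from the higher to the lower flank, in any list. No gene annotation was used, so whether the whole gene lies within that stretch was not tested. Whether an interval is exonic, intronic or intergenic, and its sequence, were not analysed here.

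The gene fgf8a encodes a ligand of the Fgf8 subfamily that is needed at the midbrain-hindbrain boundary and is mutated in acerebellar fish. It had 5 Sox2 intervals, 2 of late blastula Pou5f1-Flag and 3 of 512-cell Pou5f1-Flag. As many intervals or more were beside 11.9%, 53.0% and 27.7% of the genes named in these lists, respectively. The strongest Sox2 interval held 449 reads (chromosome 13, 28682989 to 28683695), rank 86 of its list, and lay between slc2a15a and fgf8a, 35.5 kb below the stretch of 10.7 kb that brackets the gene. A 512-cell Pou5f1-Flag interval of 177 reads, rank 237, lay at the same position (28683152 to 28683657). A further position shared by these 2 lists stood next to it, with 42 Sox2 reads (28679887 to 28680158) and 133 reads of 512-cell Pou5f1-Flag (28679834 to 28680329). At this neighbouring position the order of strength differed between the lists: its Sox2 interval ranked 4473 of 6129 and its 512-cell interval 453 of 7747.

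Neither of these shared positions beside fgf8a was in the late blastula Pou5f1-Flag list, whose nearest intervals lay 27249 and 30577 bp from the 512-cell ones. The late blastula Pou5f1-Flag intervals beside fgf8a held 44 reads (28710907 to 28711213) and 40 reads (28718903 to 28719181), ranks 3088 and 3578. The 44-read interval began 46 bp beyond the end of a Sox2 interval of 99 reads (28710370 to 28710860) without overlapping it. Further Sox2 intervals with no partner in either Pou5f1-Flag list held 112 reads below the gene (28691207 to 28691643) and 85 reads between fgf8a and fbxw4 (28729841 to 28730231). The remaining 512-cell interval had 55 reads (28743080 to 28743356), listed between fgf8a and wbp1la. The Sox2 list places fbxw4 between these 2 genes, so this interval may lie beyond fbxw4.

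The gene fgf17 encodes another ligand of the Fgf8 subfamily. It had 6 Sox2 intervals, 4 of late blastula Pou5f1-Flag and 1 of 512-cell Pou5f1-Flag. Among the 5003 genes named in the Sox2 list 400 had as many Sox2 intervals or more. For late blastula Pou5f1-Flag this held for 1075 of 5346 named genes. At 512 cells it held for all 7070, since every named gene has at least 1 interval. The strongest Sox2 interval of fgf17, with rank 66, held 494 reads, more than any other Sox2 interval beside the 4 genes (chromosome 8, 54923873 to 54924476). It lay between nr5a1a and fgf17, 20.0 kb below the 7.29 kb that bracket the gene. Neither Pou5f1-Flag list had an interval there, the nearest being 27313 bp away at late blastula and 19550 bp away at 512 cells. Next in strength were Sox2 intervals of 272 reads (54943925 to 54944440), overlapped by a 512-cell Pou5f1-Flag interval of 54 reads, and of 217 reads (54966071 to 54966551), overlapped by a late blastula Pou5f1-Flag interval of 115 reads.

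The Sox2 interval of 99 reads just above fgf17 (54951730 to 54952135) was the single position among the 4 genes that all 3 ChIP lists held, with 28 reads of Pou5f1-Flag at late blastula and 59 at 512 cells (54951796 to 54952055). Both Pou5f1-Flag intervals had the highest false discovery rate of their list, 2.77% at late blastula and 2.47% at 512 cells. The 512-cell list gives the flanking genes of its 59-read interval as nr5a1a and tubb2b, and so passes over fgf17. A Sox2 interval of 155 reads far below the gene (54855097 to 54855574) coincided with 22 reads of late blastula Pou5f1-Flag. The last Sox2 interval, of 38 reads (54902569 to 54902848), stood alone, and a late blastula Pou5f1-Flag interval of 57 reads ended 46 bp before the Sox2 interval of 217 reads.

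The gene fgf24 encodes a further ligand related to Fgf8, which acts with it in posterior mesoderm and is required for pectoral fin initiation in zebrafish. It had 3 intervals of Sox2, fewer than each of the other 3 genes, 3 of late blastula Pou5f1-Flag and 0 of 512-cell Pou5f1-Flag. As many intervals or more were beside 29.9% of the genes named in the Sox2 list. For late blastula Pou5f1-Flag this share was 31.3%. The 512-cell list named 7070 of the 9679 genes named in any list. The Sox2 intervals held 32 reads (chromosome 14, 5512512 to 5512762), 98 reads (5555086 to 5555474) and 116 reads (5569222 to 5569644), and the strongest ranked 1358. The position of 98 reads, between fgf24 and npm1b, coincided with late blastula Pou5f1-Flag intervals of 63 and 83 reads. These overlap each other, 1 from each of the 2 passes that the late blastula Pou5f1-Flag list makes through the chromosomes, and so mark 1 place. Another late blastula Pou5f1-Flag interval of 29 reads lay 78842 bp from the nearest Sox2 interval. The nearest 512-cell interval, of 62 reads, was listed between npm1b and kazald2, 29.7 kb above the last of the fgf24 intervals.

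The gene fgf3 encodes a ligand of a different Fgf subfamily that acts alongside Fgf8 in the zebrafish hindbrain and ear. It had 5 Sox2 intervals and 3 of either Pou5f1-Flag list. Its counts were reached or passed by 11.9% (Sox2), 31.3% (late blastula Pou5f1-Flag) and 27.7% (512-cell Pou5f1-Flag) of the genes named there. Its strongest Sox2 interval held 416 reads, rank 108 (chromosome 7, 54647372 to 54647939), and bordered the 2.21 kb that bracket the gene. An interval of 152 reads in the 512-cell Pou5f1-Flag list, rank 340 of 7747 and with a false discovery rate of 0.0823%, lay within the same position (54647420 to 54647933). That list names fgf4 and zgc:153993 on its flanks, the genes on either side of fgf3, so it does not count among the 38. The 3 intervals that the 512-cell list does name for fgf3 held 49 to 55 reads, at ranks 3229 to 4474. The strongest 512-cell interval by name therefore had 55 reads, while the one at the strongest Sox2 position had 152.

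The second Sox2 interval of fgf3 in strength, 288 reads (54653157 to 54653675), was shared with late blastula Pou5f1-Flag, whose overlapping intervals there held 96 and 49 reads, 1 from each pass. The 512-cell list had no interval at that position, and the late blastula Pou5f1-Flag list had none at the 416-read position, where its nearest interval (23 reads) began 2211 bp further on. A Sox2 interval of 79 reads (54712238 to 54712607) was shared with a 512-cell interval of 49 reads. Sox2 intervals of 33 and 50 reads stood alone.

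**Figure D1:**
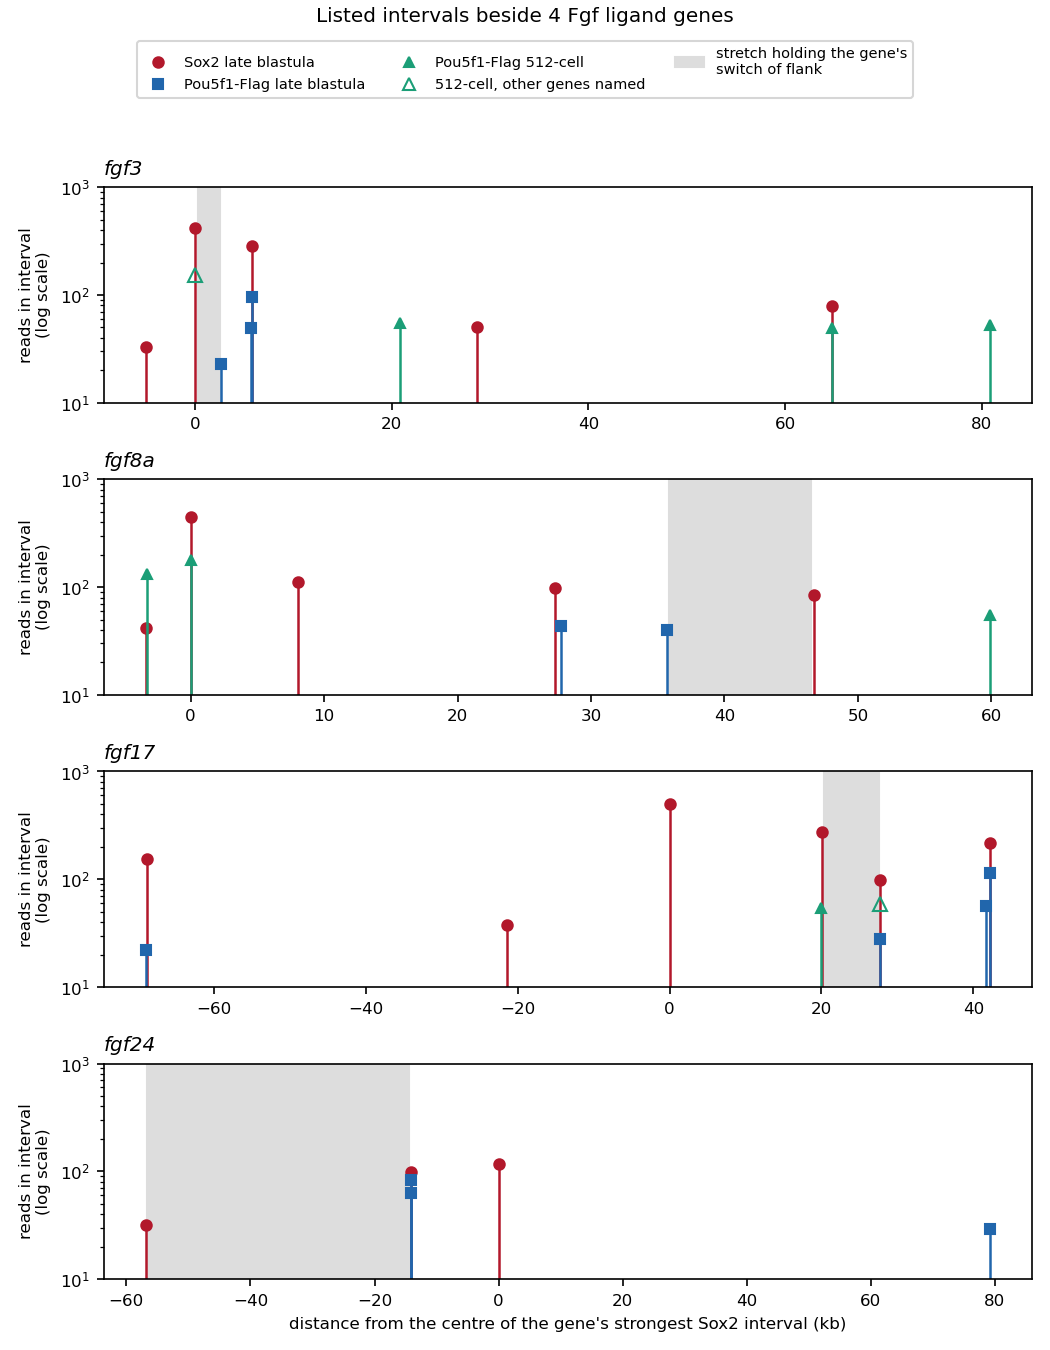
Each symbol is a listed interval; the horizontal axis gives the distance in kb from the centre of the gene's strongest Sox2 interval and the vertical axis the reads in the interval on a log scale. Red circles are Sox2, blue squares late blastula Pou5f1-Flag, filled green triangles 512-cell Pou5f1-Flag, open triangles the 512-cell intervals of 152 reads at fgf3 and 59 reads at fgf17 listed for other genes, and grey bands the stretches that bracket the genes; at fgf8a and fgf3 the strongest Sox2 interval has a 512-cell partner, and at fgf17 it has none.

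The 512-cell list often gave other flanking genes than the late blastula lists. At positions shared with Sox2, 338 of 568 (59.5%) had the same pair of flanking genes, 206 (36.3%) had 1 gene in common and 24 had none. For Sox2 and late blastula Pou5f1-Flag the pair was the same at 1754 of 1761 shared positions. What separates the 2 ways of naming was not tested. Counts of 512-cell intervals by gene name are therefore lower than counts by position beside these genes, 7 against 9. Naming can also add intervals: both counts include the 55-read one at fgf8a, which passes over fbxw4 and may lie beyond it.

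Sox2 intervals beside the 4 genes stood high in their list. Their reads ran from 32 to 494 with a median of 99, against 63 for all Sox2 intervals, and 14 of 19 lay above that median. The strongest 10% of the list, with at least 192 reads, held 6 of the 19 (31.6%), against 10.1% of all Sox2 intervals by construction. These 6 were 3 at fgf17, 2 at fgf3 and 1 at fgf8a. The strongest at fgf24 stood at 22.5% of the list. For 7 of the 19 the authors' Wilcoxon filter p was listed at 0, against 9.76% of the list. Late blastula Pou5f1-Flag intervals lay near the middle of theirs, from 22 to 115 reads with a median of 46.5, against 41 for the list, and 1 of 12 was in the strongest 10% (10.1% of that list, ties included), at fgf17. The 512-cell intervals ran from 49 to 177 reads with a median of 55, against 52 for the list. In the strongest 10% of that list (10.1% with ties) were 2 of 7, those at fgf8a. By position, the 152-read interval at fgf3, at 4.45% of that list, stood there too.

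The order of the 4 genes by their strongest interval differed between the lists. For Sox2 it was fgf17 (494 reads), fgf8a (449), fgf3 (416) and, apart from them, fgf24 (116). For late blastula Pou5f1-Flag it was fgf17 (115), fgf3 (96), fgf24 (83) and fgf8a (44). At 512 cells by name it was fgf8a (177), fgf3 (55) and fgf17 (54). Reads of a single sample have no replicate spread, so neighbours in these orders cannot be separated.

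**Figure D2:**
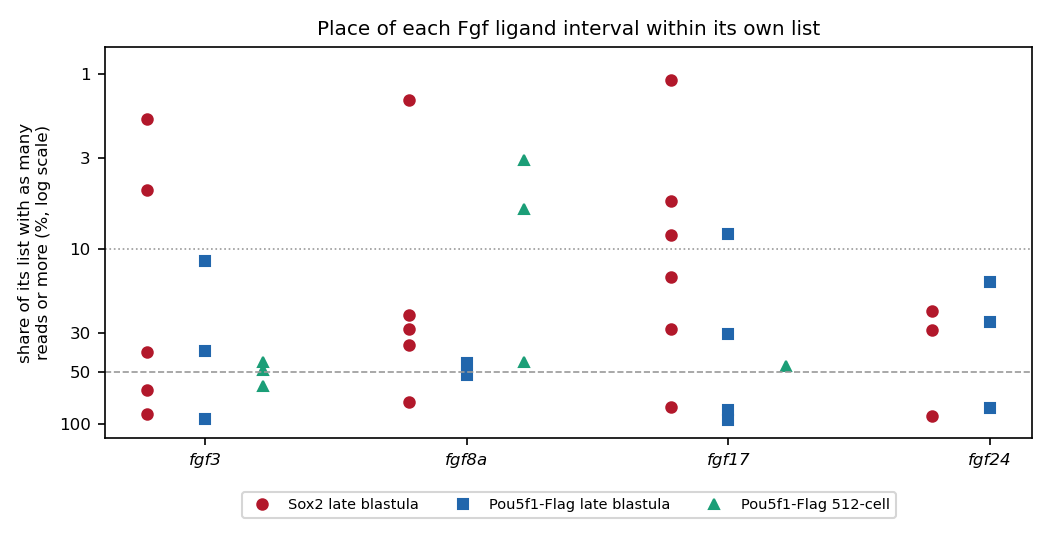
For each interval the vertical axis gives the share of its own list with as many reads or more, in percent on a reversed log scale, so that stronger intervals stand higher; the dotted line marks 10% and the dashed line 50%. The strongest Sox2 intervals of fgf17, fgf8a and fgf3 lie at 1.08%, 1.40% and 1.79%, and the 3 512-cell intervals of fgf8a at 3.11%, 5.91% and 43.8%.

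Whether the 2 factors share positions beside these genes was asked by overlap of at least 1 bp. The 3 ChIP lists together marked 27 places, counting the 2 that the 512-cell list names otherwise. Sox2 alone marked 9, late blastula Pou5f1-Flag alone 5 and 512-cell Pou5f1-Flag alone 3. Sox2 and the 512-cell list shared 5, Sox2 and late blastula Pou5f1-Flag 4, and 1 was in all 3 lists. No place was shared by the 2 Pou5f1-Flag lists without Sox2. Such places were not counted over the whole lists, so these numbers have no background share and are a description only. Overlaps of intervals between lists are set beside those of the whole lists further below. By gene, fgf8a had 2 places shared by Sox2 with 512-cell Pou5f1-Flag and 0 with late blastula Pou5f1-Flag, fgf24 had 0 and 1, and fgf3 had 2 and 1. At fgf17 these numbers were 1 and 2, beside the place in all 3 lists.

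Of the 19 Sox2 intervals, 5 had a late blastula Pou5f1-Flag interval at the same place (26.3%, exact binomial 95% interval 9.15 to 51.2), against 28.8% of the whole Sox2 list. With 512-cell Pou5f1-Flag 6 of 19 did (31.6%, 12.6 to 56.6), against 9.32% of the list. With intervals of a false discovery rate at or below 1% in both lists, this was 2 of 17 (11.8%), against 5.32% of the list. Both Pou5f1-Flag lists held 1 of the 19, against 6.27% of the list. In the strongest 10%, where sharing is more frequent, late blastula Pou5f1-Flag overlapped 2 of 6 Sox2 intervals beside these genes (33.3%, 4.33 to 77.7), against 73.4% of the 617 in the list, and 512-cell Pou5f1-Flag overlapped 3 of 6 (50.0%, 11.8 to 88.2), against 33.1%. Intervals beside 1 gene are not independent, and these bounds cover counting error over intervals and not variation between embryos.

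Seen from the other lists, 7 of the 12 late blastula Pou5f1-Flag intervals overlapped Sox2 (58.3%, 27.7 to 84.8), against 30.6% of that list. Of these 7, 4 are the overlapping pairs at fgf3 and fgf24 and mark 2 places. With overlapping intervals of a list merged, 5 of 10 late blastula Pou5f1-Flag intervals overlapped Sox2 (50.0%), against 27.1% of the list. Overlap with 512-cell Pou5f1-Flag was found for 1 of the 12 (8.33%, 0.211 to 38.5), the position above fgf17, against 14.0% of the list. Of the 7 intervals of 512-cell Pou5f1-Flag, 4 overlapped Sox2 (57.1%, 18.4 to 90.1), against 7.44% of that list. None of the 7 overlapped late blastula Pou5f1-Flag, which allows a share of up to 42.9%, against 10.8% of the list. With all 9 intervals counted by position, a choice made after seeing the data, these shares were 66.7% and 11.1%. Allowing gaps of up to 100 bp, also chosen afterwards, brought 9 of 12 late blastula Pou5f1-Flag intervals to Sox2 (75.0%), against 31.2% of the list. Of the 7 named 512-cell intervals, 1 had a false discovery rate at or below 1%, that of 177 reads at fgf8a.

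No interval beside the 4 genes overlapped Input. That is 0 of 38, which allows a share of up to 7.89%, and the nearest Input interval to any of them was 121 kb away. Over the whole lists, Input was overlapped by 3.34% of Sox2 intervals, by 6.45% of those of late blastula Pou5f1-Flag and by 2.25% of those at 512 cells. Input chromatin from MZspg embryos or from 512-cell embryos was not analysed here.

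**Figure D3:**
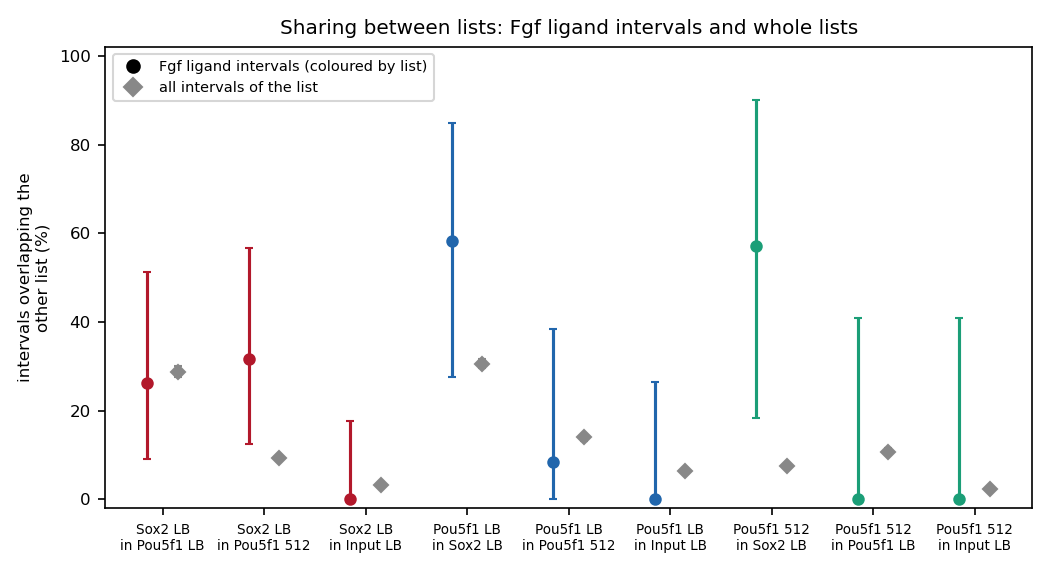
Share of intervals, in percent, that overlap another list by at least 1 bp, for the intervals beside the 4 Fgf ligand genes (coloured circles) and for all intervals of the same list (grey diamonds), with exact binomial 95% intervals; LB is late blastula and 512 the 512-cell stage. The Sox2 intervals of these genes lie at 26.3% for sharing with late blastula Pou5f1-Flag, against 28.8% of the list, and at 31.6% for sharing at 512 cells, against 9.32% (11.8% against 5.32% at a false discovery rate at or below 1%).

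Other members of the pathway were taken from a fixed list of 50 genes, of which 40 were named in any of the 4 peak lists. A gene is counted here when an interval that overlaps no Input interval names it, so an interval listed for other genes is not counted. Among all 9679 genes named in any list, this held for 51.2% in the Sox2 list, 54.1% in the late blastula Pou5f1-Flag list and 72.4% in the 512-cell list, while 9.39% were beside an Input interval. All 3 ChIP lists named 24.9% of them, and named 3 of the 4 ligand genes described above and 15 of the 40 others. All 4 genes described above had such an interval in each late blastula ChIP list and 3 had one at 512 cells. Of 18 other fgf genes named anywhere, 6 had one of Sox2, 12 one of Pou5f1-Flag at late blastula and 16 one at 512 cells. Of these 18, 1 was beside an Input interval. They were taken by symbol, fgf11a and fgf13a included, and not all fgf genes encode secreted ligands. A further 9 fgf genes, among them fgf8b, were named in no list. Beside fgf4 the strongest Sox2 and 512-cell intervals were those described at fgf3, so these genes share them. The next Sox2 reads were 232 at fgf13a and 209 at fgf16, both below those of fgf17, fgf8a and fgf3 and above the 116 of fgf24. In the late blastula Pou5f1-Flag list fgf11a, with 219 reads (chromosome 7, 23757712 to 23758212) and no Sox2 interval, stood above all 4.

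Receptor genes had a Sox2 interval in 6 of 7 cases, a late blastula Pou5f1-Flag interval in 4 and a 512-cell interval in 5. The strongest Sox2 interval of the fixed list was at fgfr1b, a receptor gene, with 614 reads and rank 44 (chromosome 10, 43957718 to 43958372). Late blastula Pou5f1-Flag had an interval of 166 reads at that position, and 512-cell Pou5f1-Flag had one of 86 reads that names kctd9b and stc1l and so does not count for fgfr1b. The strongest receptor interval of late blastula Pou5f1-Flag was at fgfr2 with 194 reads. Of 13 target and feedback genes named, 9 had a Sox2 interval, 10 one of Pou5f1-Flag at late blastula and 11 one at 512 cells, and 5 were beside an Input interval. Foremost by name for Sox2 was etv5a, an Ets gene (418 reads). For 512-cell Pou5f1-Flag they were spry1, a Sprouty inhibitor gene (249 reads), and dusp6, which encodes a phosphatase of MAP kinase (161 reads). By position, a 512-cell interval of 334 reads, rank 77, stood above both. It overlapped the strongest Sox2 (406 reads) and late blastula Pou5f1-Flag (148 reads) intervals of etv4. That 512-cell interval names meox1 and ogfod3 and so does not count for etv4. The dusp6 position was in all 3 lists, with 366 Sox2 and 96 late blastula Pou5f1-Flag reads. So was the spry1 position, with 239 Sox2 and 110 late blastula Pou5f1-Flag reads in intervals that name cops6 and cyyr1. The adaptor genes frs2a, with 1, and frs2b, with 3, had 512-cell intervals, the strongest of 158 reads at frs2b, and were named by neither late blastula ChIP list. A late blastula Pou5f1-Flag interval of 67 reads that names met and zgc:113984 overlapped the 158-read position.

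**Figure D4:**
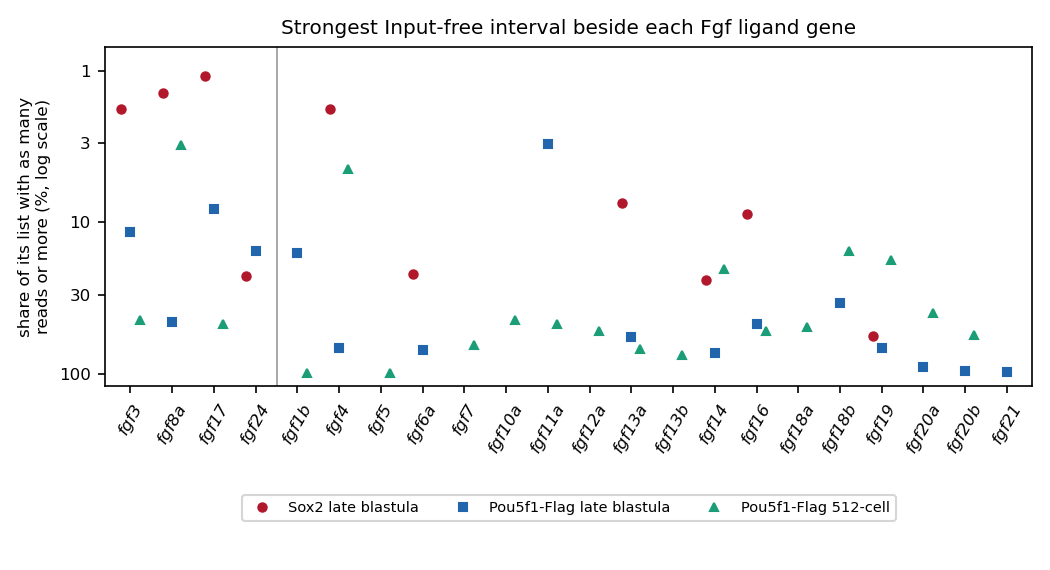
For each fgf gene, taken by symbol whether or not it encodes a secreted ligand, with an interval that overlaps no Input interval, the vertical axis gives the share of the list with as many reads or more as the gene's strongest such interval, in percent on a reversed log scale; red circles are Sox2, blue squares late blastula Pou5f1-Flag and green triangles 512-cell Pou5f1-Flag. The 4 genes described here stand left of the line. The Sox2 value of fgf4, 1.79%, is that of fgf3 because both genes flank that interval. Values at 512 cells follow the genes that list names. Its interval at the same position is therefore drawn for fgf4, at 4.45%, and not for fgf3, drawn at 43.8%.

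Genes with the most similar standing were sought by the share of each ChIP list with as many reads or more as a gene's strongest interval, summing absolute differences over the lists in which the ligand gene is named. Genes that share that interval with the ligand gene itself, as slc2a15a does with fgf8a, were left out. Over 3 lists, the nearest to fgf17 was tle3b, a Groucho corepressor gene (473 Sox2, 132 late blastula and 54 512-cell Pou5f1-Flag reads, sum of differences 1.87 percentage points), followed by kif23 (4.26 points). Nearest to fgf3 were hs6st2, which encodes a heparan sulfate sulfotransferase (3.02 points), and kif23 (3.96 points). Both results rest on the naming of intervals. The gene fgf3 enters with its 55-read 512-cell interval at 43.8% and not with the one of 152 reads at 4.45%. Likewise, fgf17 enters with its 54-read 512-cell interval at 46.4% and not with the one of 59 reads at 35.4%. Which genes would be nearest by position was not tested. For fgf8a the nearest were apoa4b.2 (6.95 points) and si:dkey-121a9.3 (7.45 points). For fgf24, over the 2 late blastula lists, hif1al and tsr1, whose strongest intervals are the same, were equally near (0.799 points each). Candidates numbered 2405 for fgf3 and fgf17, 2406 for fgf8a and 888 for fgf24.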

How the data were processed

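The authors deposited 1 peak list per sample, so calling was per sample, with no replicates; per the series design text, Pou5f1 was sequenced in technical duplicates for depth. Its columns, per the file headers, are read counts of each interval, in all and by strand, a percent false discovery rate, the p-value of a Wilcoxon filter and a normalized difference, which by recalculation is the absolute strand difference as a fraction of the deposited reads. The submitters' processing notes name CASAVA. Aligner, peak caller and thresholds: not given in the sources used here. Identifiers of the late blastula lists name Zv9, and the same build was assumed for the 512-cell list. Deposited starts were taken as counted from 0. RefSeq accessions were converted to symbols through a table of another assembly (94.5% of those in the Sox2 list, 95.1% and 95.6% of those in the late blastula and 512-cell Pou5f1-Flag lists and 92.0% of those in the Input list matched).

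Overlaps, ranks and exact Clopper-Pearson intervals were computed with Python 3.11.15, pandas 2.3.3, numpy 2.4.6 and scipy 1.17.1, after the overlap and merging code was tested on simulated intervals. Ties share the better rank. A count of 0 is given with the limit that 3 counts allow. Named genes were the 4 ligand genes, the 3 strongest other pathway genes per ChIP list and the 2 genes most alike per ligand gene. Added after values were seen were fgf13a, fgf16, fgf8b, frs2a, etv4, the genes that overlapping intervals name otherwise and the neighbours in the closing section. The members and lists were chosen with earlier results of these data known.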

Additional observations from a re-analysis of the deposited data

How the results depend on the processing

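Of 24 alternative counts of intervals beside the 4 genes, 22 stayed within 1.5 times the count given, and of 64 alternative shares 59 stayed within its 95% interval. Many of these values could not move, so the tallies overstate how stable the results are. The Input list had 0 such intervals, and no interval beside the 4 genes overlapped Input. Passes were assigned in the late blastula Pou5f1-Flag list alone, and each other list was taken as 1 pass. Shares overlapping Input were 0 in every setting. The first pass of the late blastula Pou5f1-Flag list alone left 2 of the 12 intervals, of which 100% overlapped Sox2 (42.9% of the list) and 0 overlapped 512-cell Pou5f1-Flag (17.6% of the list). A false discovery rate at or below 1% left 1 of the 7 intervals of 512-cell Pou5f1-Flag, of which 100% overlapped Sox2 (18.5% of the list). It also left 11.8% of Sox2 intervals (5.32% of the list) and 0 late blastula Pou5f1-Flag intervals (0 of 8, against 9.87% of the list) overlapping 512-cell Pou5f1-Flag. Fewer intervals remained at this setting, and what moved these shares was not tested. Ranking by reads per kb or without Input-overlapping intervals moved 17 of 22 places of the strongest intervals beyond their counting error, with the strongest Sox2 intervals of fgf17, fgf8a and fgf3 between 0.571% and 1.86% of the list. No paired analysis was possible because each group holds 1 sample. The sums of reads in intervals are not depths, so a position missing from a list may be below what that list could show.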

Other observations

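The neighbours of fgf3 on chromosome 7 also had intervals. These gene pairs were chosen after their values were seen. Between fgf19 and fgf4, 2 further ligand genes, lay 1 Sox2 interval of 57 reads, 2 late blastula Pou5f1-Flag intervals of 23 and 34 reads and 1 512-cell interval of 79 reads, and none of them overlapped an interval of another ChIP list. Between cdkn2aip and ccnd1, which encodes cyclin D1, lay 6 Sox2 intervals of up to 346 reads, 10 late blastula Pou5f1-Flag intervals of up to 247 reads and 7 of 512-cell Pou5f1-Flag of up to 2097 reads, and 1, 3 and 5 of these overlapped Input. Of the 6 Sox2 intervals there, 4 overlapped late blastula Pou5f1-Flag, against 28.8% of the whole Sox2 list. An Input interval of 11938 reads, rank 20 of its list, also lay between these genes (54469523 to 54486281). It overlapped Sox2 and 512-cell Pou5f1-Flag intervals.

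Beyond fgf8a, between fbxw4 and wbp1la, Sox2 had intervals of 100 and 143 reads. The 100-read interval was shared with 60 reads of late blastula Pou5f1-Flag, and the 512-cell list named no interval for that pair. That absence is by name only. The 512-cell interval of 55 reads named for fgf8a and wbp1la passes over fbxw4 and lay 8907 bp below the 100-read interval.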
